A study of Drosophila melanogaster with 4 samples.

Results

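The gene homothorax (hth) lies on chromosome arm 3R of Drosophila melanogaster, and the data described here are the GAGA factor (GAF) binding regions deposited over it. A region counted if its score was above 0 and it overlapped 3R from 6320000 to 6490000 on FlyBase release 5 by at least 1 bp. This interval of 170 kb takes in the gene, placed at about 6330000 to 6470000, with flanks on both sides. It held 15 of the 1437 enriched regions that the authors' combined list gives on 3R and of the 6474 it gives in all. In the lists of the single replicates it held 12 of 1279 regions on 3R in replicate 1 and 10 of 1304 in replicate 2. Enriched regions are called clusters below, and the 15 combined clusters are numbered 1 to 15 by rising coordinate. Apart from the requirement of a score above 0, the members were chosen by position and not by score.

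The embryos were wild type, of the strain Oregon-R, aged 14 to 16 hours and fixed in 1.8% formaldehyde, and DNA bound by GAF was recovered with an antibody and sequenced (ChIP-seq). The 4 libraries are 2 ChIP replicates and 2 inputs, and the region lists come from the ChIP side. All libraries share strain, genotype and age, so the data hold 1 condition and no contrast between conditions. Chromatin came from whole embryos, so binding in few cells and weak binding in many cannot be told apart.

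hth encodes a homeodomain protein of the TALE class, the fly relative of vertebrate Meis proteins. It binds Extradenticle, the fly relative of Pbx, carries it into the nucleus and joins it and the Hox proteins on DNA, and the pair is known for its part in segment identity and in the base of the legs and antennae. GAF, the product of the gene Trl, binds GA-rich DNA through a zinc finger, opens chromatin at many promoters and is found at Polycomb response elements of developmental genes. The gene table at hand (release 6) lists hth as Dmel_CG17117 with 5 RefSeq transcripts and a length of 132 kb, the 8th longest of 3398 protein-coding genes on 3R. It places Cyp12e1 and CG6465 as the protein-coding neighbours, a miRNA gene, mir-4944, within the span of hth, and an antisense RNA gene, CR44018, overlapping one end. Coordinates of that release differ from those of the region lists and were not carried over. No cluster is therefore assigned here to a promoter, exon or intron, and the limits of the gene are approximate.

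GAF binding over hth consisted of 4 high-scoring clusters and 11 low-scoring ones, where low means below the median score of 3R. The 4 were clusters 3, 12, 13 and 14, with combined scores between 2.31 and 3.65, and the highest score among the other 11 was 1.06. Scores are those the authors gave each region, on a scale that is not stated, and are read here by rank and difference and never as a fold. The median of all 3R clusters in the combined list was 1.14. Clusters at or above it made up 4 of 15 over hth, against 50.3% of the 1422 clusters on the rest of 3R. The 4 high-scoring clusters held 14.0 kb, which is 43.8% of the length that clusters covered in the interval.

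**Figure D1:**
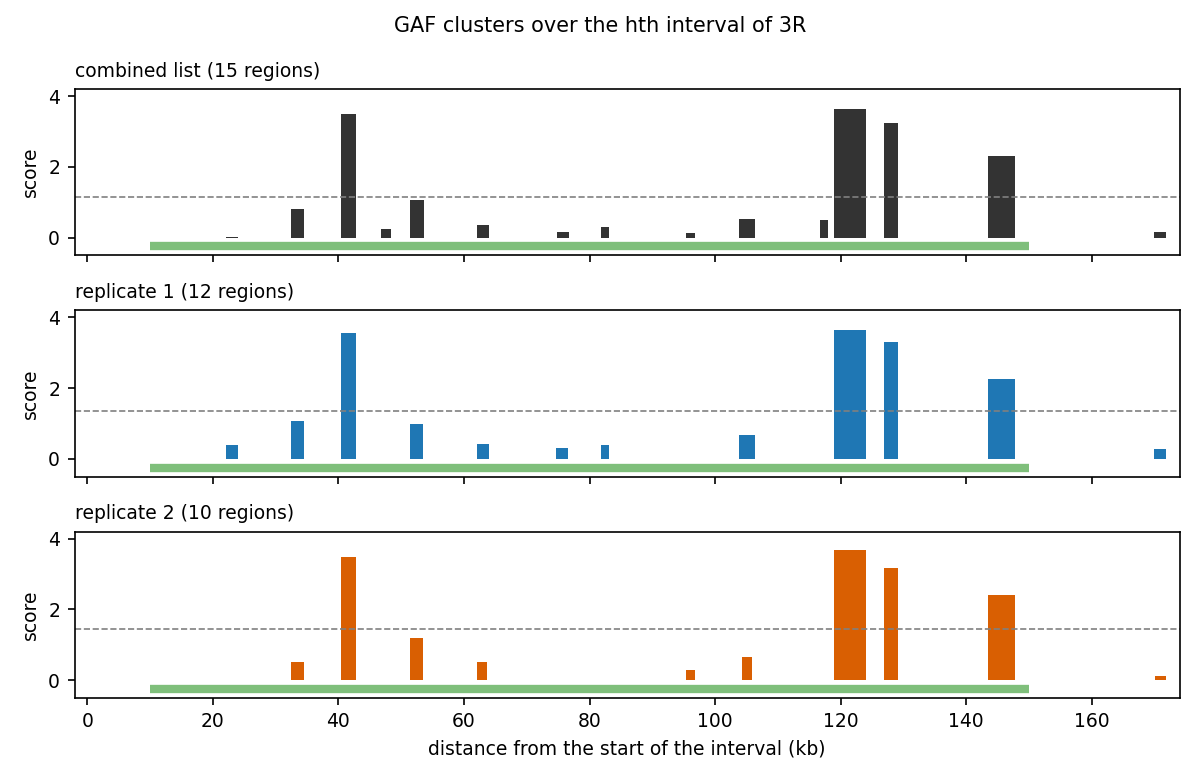
GAF clusters over the hth interval in the combined list and both replicates. The x axis is the distance from the start of the interval in kb, the y axis and bar height are the deposited score, bar width is the cluster's width to scale, the dashed line is the median score on the rest of 3R in that list and the green line is the approximate span of hth. The 4 tall bars stand at about the same place and height in all 3 panels, while 6 of the 11 low clusters of the combined list are missing from 1 or both replicates.

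Cluster 12 had the highest score over hth and was also the widest cluster there. It ran from 6438982 to 6444103, a width of 5122 bp. Replicate 1 gave it a score of 3.63 and replicate 2 one of 3.68, a mean of 3.66 ± 0.03 (SD, n = 2), and the combined score was 3.65. The replicates differed little and gave it nearly the same place on the arm, 69th of 1279 and 68th of 1304 clusters by score. In the combined list it ranked 60th of 1437 by score and 83rd by width. The highest score on 3R was 5.22 in that list, well above the top score over hth.

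Cluster 3 lay at the other side of the gene, from 6360468 to 6362867. It scored 3.56 in replicate 1 and 3.47 in replicate 2, a mean of 3.52 ± 0.06 (SD, n = 2), and 3.51 in the combined list, rank 83 on 3R. At 2400 bp it was much narrower than cluster 12. Cluster 12 was above cluster 3 in both replicates. The gap between the means was larger than the SD of either cluster, 0.03 and 0.06. It was under 0.201, the within-cluster SD pooled over pairs of all scores on the rest of 3R. Pairs with large differences weigh most in that pooled value, and with n = 2 no order of the 2 clusters was tested.

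Clusters 13 and 14 followed cluster 12. Cluster 13, from 6446877 to 6449181 (2305 bp), had a combined score of 3.23, rank 133 on 3R, from 3.30 in replicate 1 and 3.16 in replicate 2. Cluster 14, from 6463530 to 6467713 (4184 bp), had a combined score of 2.31, rank 362, with 2.26 in replicate 1 and 2.39 in replicate 2. It was the second widest over hth and lay just under 2.32, the score that bounds the highest of 4 equal groups of 3R clusters. Clusters 12, 13 and 14 thus stood within 28.7 kb at the high-coordinate end of the gene span, 16.9% of the interval. Both replicates had 1 cluster at each of the 4 high-scoring places, and their scores there differed by at most 0.14.

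Between cluster 3 and cluster 12 lay 76.1 kb with 8 clusters of low score, from 0.13 to 1.06 and with a median of 0.33. The highest of these, cluster 5, ran from 6371384 to 6373565 and had a combined score of 1.06, with 0.98 in replicate 1 and 1.20 in replicate 2. It scored above 47.5% of the combined clusters of 3R, so it lay close to the arm's median. Cluster 10, from 6423854 to 6426382, had a combined score of 0.52, below its 0.69 in replicate 1 and 0.64 in replicate 2. Its outline was the least alike over hth, since it measured 2576 bp in replicate 1 and 1712 bp in replicate 2. Cluster 6, from 6382049 to 6383962, had a combined score of 0.34, below its 0.41 in replicate 1 and 0.51 in replicate 2. A combined score below both replicate scores was found at these last 2 clusters alone among the 9 that both replicates had, and at 20.6% of such clusters on the rest of 3R. Of the 8 clusters, clusters 5, 6 and 10 were in both replicates, 3 others were in 1 replicate and 2 in neither.

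On the low-coordinate side of cluster 3, cluster 2 ran from 6352484 to 6354561. It scored 1.07 in replicate 1 and 0.52 in replicate 2, with a combined score of 0.80. This difference of 0.55 was the largest between replicates over hth, and the cluster's mean of 0.79 had an SD of 0.39 (n = 2). Cluster 1, from 6342174 to 6344023, had the lowest score of the 15, at 0.02 in the combined list, lower than all but 0.84% of the clusters of 3R. Replicate 1 had it at 0.39 and replicate 2 had no cluster there. At the far end, cluster 15 began at 6489917 and ran past the interval to 6491849. Its combined score was 0.17, with 0.28 in replicate 1 and 0.13 in replicate 2, and it lay beyond the gene span.

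Both replicates had the 4 high-scoring clusters over hth and 5 of the 11 low-scoring ones. Of the 15 combined clusters, 9 were overlapped by a cluster of both replicates (60.0%, exact Clopper-Pearson 95% interval 32.3 to 83.7%), against 82.2% on the rest of 3R. The interval covers counting error only, treats clusters as independent and includes the value of the rest of the arm. A further 4 were overlapped by 1 replicate (26.7%, interval 7.79 to 55.1%, against 10.3%) and 2 by neither (13.3%, interval 1.66 to 40.5%, against 7.52%). The 9 shared clusters had a median combined score of 1.06 and the other 6 one of 0.19. On the rest of 3R these medians were 1.53 and 0.20.

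Support followed the score over hth as on the rest of the arm. With the 3R clusters of the combined list divided into 4 groups of equal size by score, the lowest group held 7 of the hth clusters, and 2 of these were in both replicates, against 39.5% of that group on the rest of 3R. The next group held 4, of which 3 were in both replicates, against 89.0%. The top groups held the 4 high-scoring clusters, of which all 4 were in both replicates, against 99.7% in the third group and 100% of 357 in the highest.

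The clusters missing from a replicate were cluster 1, cluster 4, clusters 7 to 9 and cluster 11. Cluster 7, from 6394739 to 6396650, was in replicate 1 at 0.31 and in the combined list at 0.15. Cluster 8, from 6401776 to 6403052, was in replicate 1 at 0.39 and in the combined list at 0.31. Cluster 9, from 6415412 to 6416810, was in replicate 2 alone, at 0.28, and had 0.13 in the combined list. In all 4 clusters seen in 1 replicate the combined score was below that replicate's score, as it was in 97.2% of 145 such clusters matched 1 to 1 on the rest of 3R.

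Clusters 4 and 11 were in the combined list alone. Cluster 4 ran from 6366825 to 6368379 and scored 0.24. Cluster 11 ran from 6436684 to 6437912, scored 0.50 and lay 1.07 kb before cluster 12, the shortest distance between neighbours over hth. Cluster 11 was the narrowest of the 15, at 1229 bp. It and cluster 8, at 1277 bp in the combined list, were narrower than any cluster of 3R in replicate 2 (1301 bp or more) or replicate 1 (1305 bp or more), as were 5.34% of the combined clusters on the rest of 3R. In the other direction, each of the 12 clusters of replicate 1 and the 10 of replicate 2 overlapped a combined cluster, as did 98.2% and 97.6% of the clusters on the rest of 3R. Replicate 2 had 9 of the 12 clusters of replicate 1 (75%, interval 42.8 to 94.5%), against 93.9% on the rest of 3R, and replicate 1 had 9 of the 10 of replicate 2 (90.0%, interval 55.5 to 99.7%), against 91.3%.

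Where both replicates had a cluster, their scores differed over hth by amounts like those elsewhere on the arm. The median absolute difference was 0.135 over the 9 pairs and 0.168 over 1155 pairs on the rest of 3R. The within-cluster SD, pooled over pairs, was 0.154 and 0.201. Replicate 1 was higher in 5 of the 9 pairs over hth, against 41.4% of pairs on the rest of the arm. Spearman's rho between the replicates was 0.95 over hth and 0.961 on the rest of 3R (Pearson's r 0.988 and 0.970). These are descriptions across clusters, which share 2 libraries and are not independent. The cluster edges also fell close together, with a median offset between replicates of 20 bp over hth and 26 bp on the rest of 3R.

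**Figure D2:**
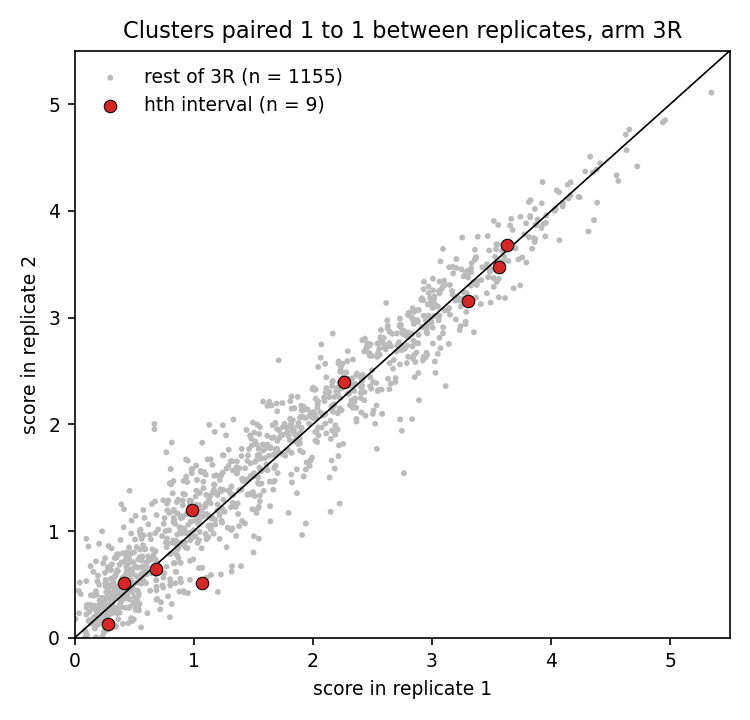
Scores of clusters paired 1 to 1 between the replicates on 3R. The x axis is the score in replicate 1, the y axis the score in replicate 2, red points are the 9 pairs over hth, grey points the 1155 pairs on the rest of 3R and the line marks equal scores. The 4 high-scoring hth pairs lie on or near the line, and the pair farthest from it is cluster 2, at 1.07 and 0.52.

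GAF clusters were packed more densely over hth than along most of 3R, by an amount that differed between the lists. The combined list gave 88.2 clusters per Mb in the interval and 51.3 on the rest of the arm. Replicate 1 gave 70.6 and 45.7, and replicate 2 gave 58.8 and 46.7. The mean of the replicates was 64.7 ± 8.32 per Mb over hth and 46.2 ± 0.69 on the rest of 3R (SD, n = 2). Windows of the same length were placed every 10 kb along the arm, clear of the interval, and 91.3% of the 2740 windows held fewer than 15 combined clusters, with a median of 9 and a highest count of 20. In replicate 1 82.5% held fewer clusters than the interval, and in replicate 2 65.2%. With clusters counted by their midpoint, cluster 15 fell outside the interval, which then held 14 combined clusters, and 87.7% of windows held fewer. The windows overlap each other, so these shares place 1 locus and test nothing.

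**Figure D3:**
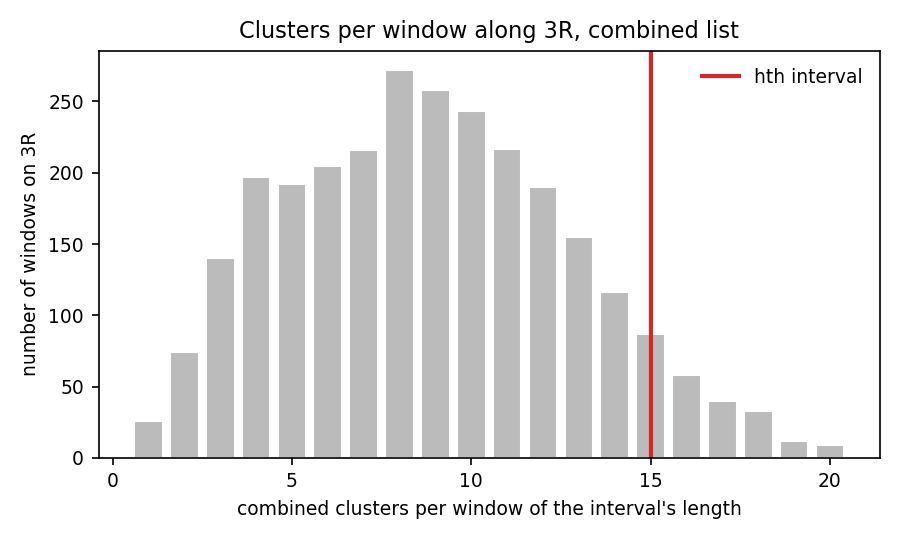
Number of combined clusters in windows of the interval's length placed every 10 kb along 3R. The x axis is clusters per window, the y axis and bar height are the number of windows, and the red line marks the hth interval. The interval stands at 15 clusters, in the upper tail of windows that range from 1 to 20 with a median of 9.

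Low-scoring clusters were the more numerous over hth. The lowest of the 4 score groups held 7 of the 15 hth clusters (46.7%), against 24.8% on the rest of 3R, and 99.1% of windows held fewer than 7 such clusters. In replicate 1, grouped by its own scores, the lowest group held 5 of 12 hth clusters and 93.4% of windows held fewer. In replicate 2 it held 4 of 10, and 82.8% of windows held fewer. Of clusters that reached the 3R median, the interval had 4, and 39.4% of windows had fewer. The highest group held 3 hth clusters in each of the 3 lists, and 64.2% of windows held fewer than 3 in the combined list. As a share of the hth clusters this was 20% in the combined list, against 25.1% on the rest of 3R. The shares were 25% against 25.02% in replicate 1 and 30% against 24.96% in replicate 2.

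The median score over hth was lower than on the rest of 3R in all 3 lists. It was 0.50 against 1.16 in the combined list, 0.83 against 1.36 in replicate 1 and 0.92 against 1.44 in replicate 2, so the replicates gave 0.88 ± 0.06 against 1.40 ± 0.06 (SD, n = 2). The difference was larger than the spread between replicates, and with 2 samples of 1 group no test was made. That spread shows how alike the 2 libraries were, and not how medians vary from place to place on the arm. The combined median lay below that of either replicate, and the combined list holds clusters over hth that 1 or both replicates lack. In the combined list 10.9% of windows had a lower median score than hth, in replicate 1 16.5% and in replicate 2 20.4%.

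Clusters covered 32.0 kb of the interval in the combined list, or 18.8%, against 13.8% of the rest of 3R. In replicate 1 the shares were 16.4% and 12.4%, and in replicate 2 13.4% and 12.7%, which is 14.9 ± 2.16% over hth and 12.5 ± 0.21% on the rest of the arm (SD, n = 2). By covered length 77.7% of windows had less than hth in the combined list, 75.1% in replicate 1 and 56.4% in replicate 2. The difference in mean covered share was only slightly larger than the spread between replicates over hth. That spread, too, does not measure variation along the arm.

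Over hth, clusters 12 and 14 stood apart by their width, at 5122 and 4184 bp, and the next widest was cluster 10 at 2529 bp. The median width was 1933 bp in the combined list, against 2219 bp on the rest of 3R, and the range was 1229 to 5122 bp. Clusters under 2 kb, a limit set after the widths were seen, numbered 8 of 15, against 27.4% on the rest of 3R. All 8 scored 0.50 or less, with a median of 0.20, and the median of such clusters on the rest of 3R was 0.21. Clusters 3 and 13 combined a score above 3 with a width near the median of the rest of 3R and above the hth median. Cluster 10, at 2529 bp, was wider than both and scored 0.52. Spearman's rho of width and score was 0.754 over the 15 hth clusters and 0.820 over the rest of 3R (Pearson's r 0.713 and 0.554), given as a description across clusters.

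**Figure D4:**
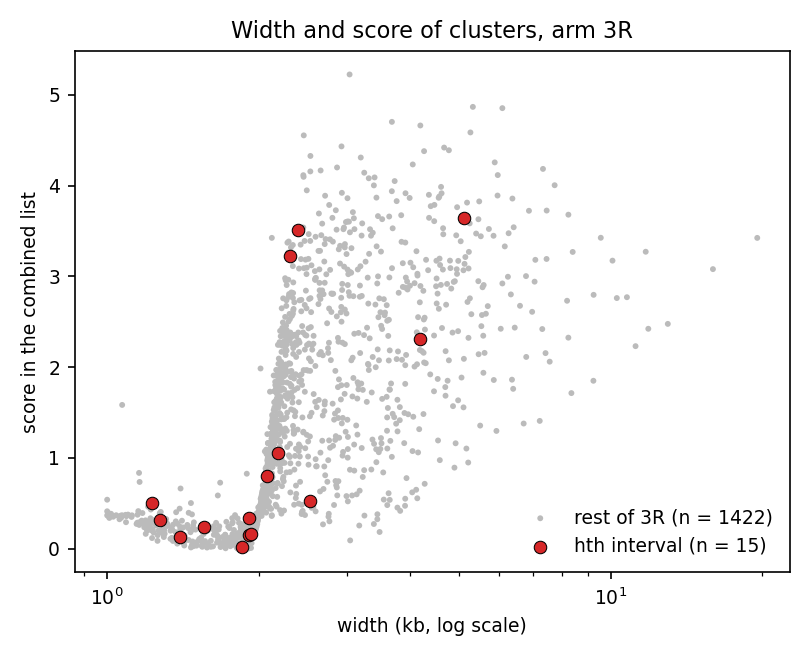
Width and combined score of the clusters of 3R. The x axis is the width in kb on a log scale, the y axis the score, red points are the 15 hth clusters and grey points the 1422 on the rest of the arm. The hth points lie within the grey cloud, with 8 of them under 2 kb at scores of 0.50 or less and 4 above 2.31.

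GAF clusters over hth began after a long stretch without any. The last cluster before the interval ended at 6261831 and cluster 1 began 80.3 kb later, a gap longer than 97.2% of the 1420 gaps between neighbouring clusters on the rest of 3R. Its end lay inside the interval and the approximate gene span, which start at 6320000 and 6330000, since cluster 1 began at 6342174. In replicate 1 the gap was also 80.3 kb. In replicate 2, which lacks cluster 1, it was 90.7 kb, longer than 97.4% of gaps. No region called depleted lay in this stretch or in the hth interval, but such regions were rare on all of 3R, with 46 in the combined list, 3 in replicate 1 and 0 in replicate 2. The gaps between neighbouring clusters of the interval ran from 1.07 to 22.2 kb, with a median of 7.75 kb against 8.86 kb on the rest of the arm. The longest of them separated cluster 14 from cluster 15, and the next cluster after the interval began at 6505737, 13.9 kb past cluster 15.

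The windows of 3R most like the hth interval in number of clusters, covered length and median score together were taken by the summed difference in rank over the 2740 windows. They were not assigned to genes. The nearest ran from 1450001 to 1620001, with 15 clusters over 31.3 kb and a median score of 0.47. The next ran from 3960001 to 4130001, with 16 clusters over 32.5 kb and a median score of 0.49, and the third from 11170001 to 11340001, with 14 clusters over 31.6 kb and a median score of 0.54. Both replicates had 11, 12 and 8 of their clusters, in this order, against 9 over hth. Clusters of the highest score group numbered 2, 2 and 1 in them, against 3 over hth.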

How the data were processed

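The deposited data are 3 region lists, from ChIP replicate 1, from ChIP replicate 2 and from both combined, on FlyBase release 5 per the file headers. The submitters' processing notes name Bowtie 0.12.7. Neither the region caller, its thresholds nor the way of combining replicates is stated. The deposited score is above 0 in enriched and below 0 in depleted regions. Per the labels, input 1 served ChIP replicate 2 and input 2 served ChIP replicate 1; the inputs were not analysed here. No read counts are given, so depth is unknown. The labels do not name separate collections for the replicates, so their spread may be technical.

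The hth interval was set beside the rest of 3R by counts, medians and windows of equal length, with no test, since the data hold 1 group. The rule for full description took the 10 clusters with the highest score, the widest, and those in 0 or 1 replicate; the others are also given. The members, score groups, width limit and gap before the first cluster were chosen with earlier results of these data known. Routines were tested on simulated data. Python 3.11.15, numpy 2.4.6, scipy 1.17.1 and matplotlib 3.10.9 were used. Alternatives were the gene without flanks, clusters from the median score up, single lists, midpoints, a reciprocal overlap of 50%, windows end to end and covered length. Without a release 5 genome or annotation, sequences and other Hox cofactor genes were not analysed here.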

Additional observations from a re-analysis of the deposited data

How the results depend on the processing

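Over 6 results and their alternatives, 17 values stayed within the spread set for the result, or within 1.5 times for a count, and 12 moved. This spread was the one between replicates, except for the median absolute replicate score difference. There it was the SD of the absolute differences across the 9 hth pairs, 0.154. That SD exceeded the main value of 0.135, so no fall could count as a move. With clusters at or above the median score alone, the count over hth was 4 in place of 15, the count found in both replicates 4 in place of 9, the covered share 8.24% in place of 18.8%, the median score 3.37 in place of 0.50, and the share of windows with fewer clusters 39.4% in place of 91.3%. Such a cut cannot raise the counts or the covered share and cannot lower the median score. The direction of those moves was therefore fixed in advance, while that of the share of windows was not. Without the flanks the covered share was 22.8%. By covered length, 77.7% of windows had less than hth. With 1 replicate left out, the count over hth was 10 to 12, the count found in the replicate kept 10 to 12, the covered share 13.4 to 16.4%, the median score 0.834 to 0.919 and the share of windows with fewer clusters 65.2 to 82.5%. The lower ends of the counts and shares came without replicate 1, and the median score moved by over 1.5 times without either replicate. The excess of clusters over hth was therefore not seen among clusters from the median score up. No paired analysis was possible because the region lists come from the ChIP replicates alone and no groups are compared. The files hold no depth, so the absence of a cluster from a replicate cannot be read as absence of binding.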

Other observations

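The combined score was not the mean of the replicate scores at every cluster. Of the 9 hth clusters that both replicates had, the combined score lay below both replicate scores in 2, clusters 6 and 10, and between them in 7. On the rest of 3R it lay below both in 20.6% of 1142 clusters matched 1 to 1 in all 3 lists, and above both in 0. Among matched clusters under the median score of 3R this share was 29.8%, and 14.6% at or above it. How the authors combined the replicates is not given in the sources used here, so no cause was tested.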
